A study of Homo sapiens with 21 samples.

Results

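The genes of the epidermal growth factor (EGF) receptor family and their ligands were examined for binding of estrogen receptor beta (ER-beta). They were the receptor genes EGFR, ERBB2, ERBB3 and ERBB4 and the ligand genes AREG, EREG, HBEGF, TGFA and BTC, which makes 9 of 20007 protein-coding genes. A region belonged to a gene when its summit lay within 50 kb of the gene body in GENCODE 44 (hg38). This rule gave 33 of 26861 regions after estradiol, 12 of 10045 after LY500307 and 2 of 2905 after ethanol. The cells were MDA-MB-231, a triple-negative breast cancer line, carrying an ER-beta gene that doxycycline switches on, and chromatin was precipitated with an antibody to the Flag tag. All groups had received doxycycline at 100 ng/ml for 24 h and then, for 3 h, 1 nM estradiol, LY500307 (an ER-beta-selective agonist) or ethanol vehicle. The LY500307 dose is 1 nM in the sample titles and 10 nM in the sample characteristics and the protocol, so estradiol and LY500307 values stand side by side without a comparison of the compounds. Each treatment has 4 ChIP and 3 input libraries in the labels, while the protocol speaks of treatment in triplicate. The authors gave 1 region list per treatment, and the descriptions of all 4 ChIP libraries of the treatment name it as their processed data. How many libraries were pooled into the list is not stated in the sources used here. The spread between libraries is therefore not known, and treatments were compared without a test. The receptor was induced and tagged, and the labels do not say whether the line is 1 clone. Sequencing depth is unknown from the lists. A region that a list lacks is one that did not pass the authors' threshold, which is not the same as an unbound site.

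EGF family ligands are made as membrane-anchored precursors that proteases release. The ligands examined here bind EGFR or ERBB4. These receptors pair with each other, with ERBB2, a receptor without a known soluble ligand, or with ERBB3. ERBB3 is a neuregulin receptor with a nearly inactive kinase. The activated receptors feed the RAS-MAPK and PI3K pathways, and triple-negative breast cancers often carry much EGFR. Estrogen receptors bind DNA at the estrogen response element (ERE), a palindrome written GGTCANNNTGACC, or through other factors such as AP-1. No expression was measured here.

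By number, most regions lay near EGFR and TGFA, which have wide windows (293 and 207 kb). These genes held 21 of the 33 estradiol regions, 10 of the 12 LY500307 regions and both ethanol regions. EGFR had 13 regions after estradiol, 4 after LY500307 and 1 after ethanol, and TGFA had 8, 6 and 1 in the same order. ERBB2 had 6 after estradiol and 1 after LY500307, HBEGF had 4 after estradiol, AREG had 1 after each of the ligands, and ERBB3 had 1 after estradiol. ERBB4, EREG and BTC had none in any list. With estradiol 6 of the 9 genes therefore had a region (66.7%), against 74.5% of all protein-coding genes. With LY500307 4 had one (44.4%), against 49.2% of all genes, and with ethanol 2 had one (22.2%), against 22.8%. The shares of the family were thus near those of all genes in each list. Over the joined gene windows of 2.49 Mb there were 13.3 estradiol, 4.83 LY500307 and 0.805 ethanol summits per Mb, against 12.3, 4.55 and 1.32 per Mb in the windows of all protein-coding genes. The ERBB4 window of 1260 kb, without a region, makes up much of the joined windows. In single windows, estradiol summits per Mb were 44.4 at EGFR, 42.1 at ERBB2, 38.7 at TGFA and 35.2 at HBEGF. At AREG and ERBB3 they were 9.1 and 7.89.

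Long genes offer more sequence, so each count was set beside genes of 0.5 to 2 times the same length. Of 3251 such genes, 97.2% had fewer estradiol regions than EGFR, and their median was 2. Of 5034 genes like TGFA in length, 90.9% had fewer estradiol regions and 97.3% had fewer LY500307 regions. The 6 estradiol regions of ERBB2 exceeded 84.7% of its 7055 companions, and the 4 of HBEGF exceeded 67.8%. Other members stood below many of their companions. More estradiol regions were found at 60% of the genes like ERBB3, 57.4% of those like AREG, 78.3% of those like EREG and 79.4% of those like BTC. ERBB4 is the longest gene of the family at 1160 kb and had no region in any list. Of 231 genes of like length, 30.7% had no estradiol region, 42.9% no LY500307 region and 70.1% no ethanol region, so its lack was not rare. These are descriptions of single lists, with no test.

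**Figure D1:**
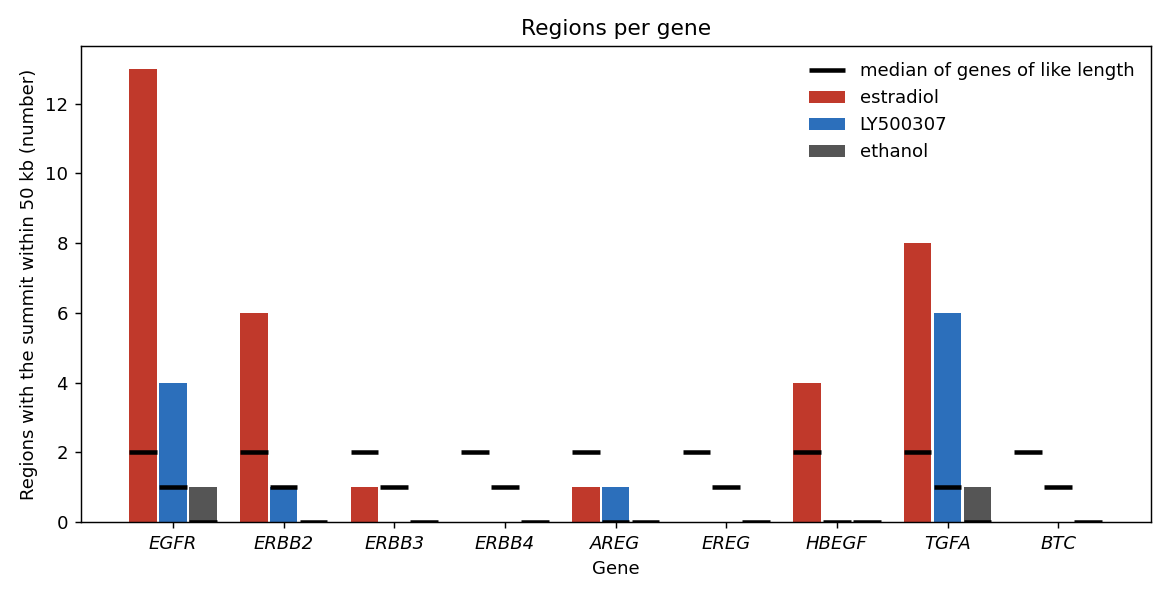
Number of regions with the summit within 50 kb of each gene (vertical axis) after estradiol, LY500307 and ethanol (bars, left to right), with the median of genes of 0.5 to 2 times the length as a black line. EGFR reaches 13 and TGFA 8 after estradiol, while ERBB4, EREG and BTC have none.

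The DNA at the summits is shown first for a choice of regions, from the hg38 plus strand, as the base of the estradiol summit and 50 bases on either side. These include both regions with an ERE of at most 1 mismatch, some regions shared with LY500307, 1 weak HBEGF region and the repeat downstream of TGFA. The choice leans to regions with an ERE match and is no sample of the family. Of all its estradiol regions, 10 of 33 held an ERE with at most 2 mismatches. Capitals mark the best ERE match with at most 2 mismatches, or, in the GRB7 intron near ERBB2, the AP-1 element TGANTCA; the TGFA sequence has neither.
EGFR, 25.7 kb upstream, chr7:54993269-54993369: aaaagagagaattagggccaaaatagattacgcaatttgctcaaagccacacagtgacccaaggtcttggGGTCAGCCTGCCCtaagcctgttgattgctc
EGFR, intron 1, 3.5 kb from the start, chr7:55022438-55022538: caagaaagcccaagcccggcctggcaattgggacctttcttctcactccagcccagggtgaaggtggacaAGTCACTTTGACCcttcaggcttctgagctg
EGFR, intron 20, 167.1 kb from the start, chr7:55186111-55186211: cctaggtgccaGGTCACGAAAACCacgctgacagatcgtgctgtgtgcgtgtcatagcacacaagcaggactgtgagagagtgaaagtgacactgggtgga
EGFR, downstream, 215.9 kb from the start, chr7:55234901-55235001: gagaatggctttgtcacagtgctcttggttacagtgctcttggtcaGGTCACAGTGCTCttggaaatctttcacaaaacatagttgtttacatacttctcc
ERBB2, downstream in GRB7 intron 1, chr17:39740823-39740923: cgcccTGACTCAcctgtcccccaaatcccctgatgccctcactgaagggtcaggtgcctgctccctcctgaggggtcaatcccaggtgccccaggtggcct
AREG, downstream, chr4:74500235-74500335: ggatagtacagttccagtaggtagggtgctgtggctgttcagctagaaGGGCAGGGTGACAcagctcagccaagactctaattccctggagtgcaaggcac
HBEGF, downstream, chr5:140319311-140319411: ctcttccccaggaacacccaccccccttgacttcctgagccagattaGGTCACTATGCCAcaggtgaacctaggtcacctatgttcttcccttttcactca
TGFA, downstream, chr2:70435041-70435141: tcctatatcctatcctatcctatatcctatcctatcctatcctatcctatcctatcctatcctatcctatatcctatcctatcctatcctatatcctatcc

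EGFR encodes the receptor for EGF, TGF-alpha and amphiregulin. It lies on the plus strand of chromosome 7, from 55019017 to 55211628. Its strongest region was intergenic, 25.7 kb upstream of the gene start (chr7:54993112-54993546 after estradiol). The authors' fold, the summit's ChIP signal divided by its local background, was 55.6 there after estradiol, 14.6 after LY500307 and 9.97 after ethanol. By fold this site ranked 1958 of 26861 after estradiol (7.29% from the top), 2654 of 10045 after LY500307 (26.4%) and 747 of 2905 after ethanol (25.7%). It was the EGFR site found with all treatments. The folds come from lists made separately, so they describe each list and measure no change between treatments, and ranks in lists of unequal length show none either. The ERE match printed for this site has the single substitution A11C, counted from 1 at the 5′ end of the palindrome. The same 13 bases lay 26 bp from the estradiol summit, 3 bp from the LY500307 summit and 6 bp from the ethanol summit.

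The start of EGFR was flanked by estradiol regions that no other list held. A promoter region 541 bp upstream had a fold of 6.02, and a region over the untranslated first exon, 228 bp downstream of the start, had a fold of 8.84. Regions 3.0 and 3.5 kb into intron 1 had folds of 6.81 and 9.33, and the one at 3.5 kb carries the other ERE with a single mismatch (G1A). The 250 bases upstream of the EGFR start in the RefSeq promoter table (GRCh38.p14), which the region over exon 1 overlaps, are GC-rich (73.6% GC) and are printed with the SP1 element GGGCGG, sought on both strands, in capitals.
EGFR promoter, plus strand, chr7:55018767-55019016: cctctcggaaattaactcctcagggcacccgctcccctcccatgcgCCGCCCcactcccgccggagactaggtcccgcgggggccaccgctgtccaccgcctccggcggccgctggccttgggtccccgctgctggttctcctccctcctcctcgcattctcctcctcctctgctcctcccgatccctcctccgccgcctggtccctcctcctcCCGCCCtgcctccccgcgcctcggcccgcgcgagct
SP1 letters were in 42.6% of 35116 promoter windows of this length. The window had no ERE of at most 1 mismatch (0.678% of windows), no AGGTCA (12.1%) and no AP-1 element (6.57%).

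Further into EGFR, the long first intron held 5 more estradiol regions. Those at 32.7 and 34.8 kb from the start had folds of 6.90 and 14.9, and those at 111.9, 113.9 and 114.8 kb had folds of 14.9, 17.4 and 7.64. Of the 7 estradiol regions in intron 1, the one at 113.9 kb was also in the LY500307 list, with a fold of 5.53. Both ligands also gave a region in intron 20, with a fold of 20.1 after estradiol and 6.84 after LY500307, and 1 beyond the 3′ end of the gene, 215.9 kb from its start, with folds of 23.7 and 4.92. The last 2 sites each hold an ERE match with 2 mismatches. The most distant region, 49.6 kb upstream, had a fold of 5.81 and was in the estradiol list alone. For all 13 estradiol regions the nearest protein-coding transcription start was one of EGFR.

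**Figure D2:**
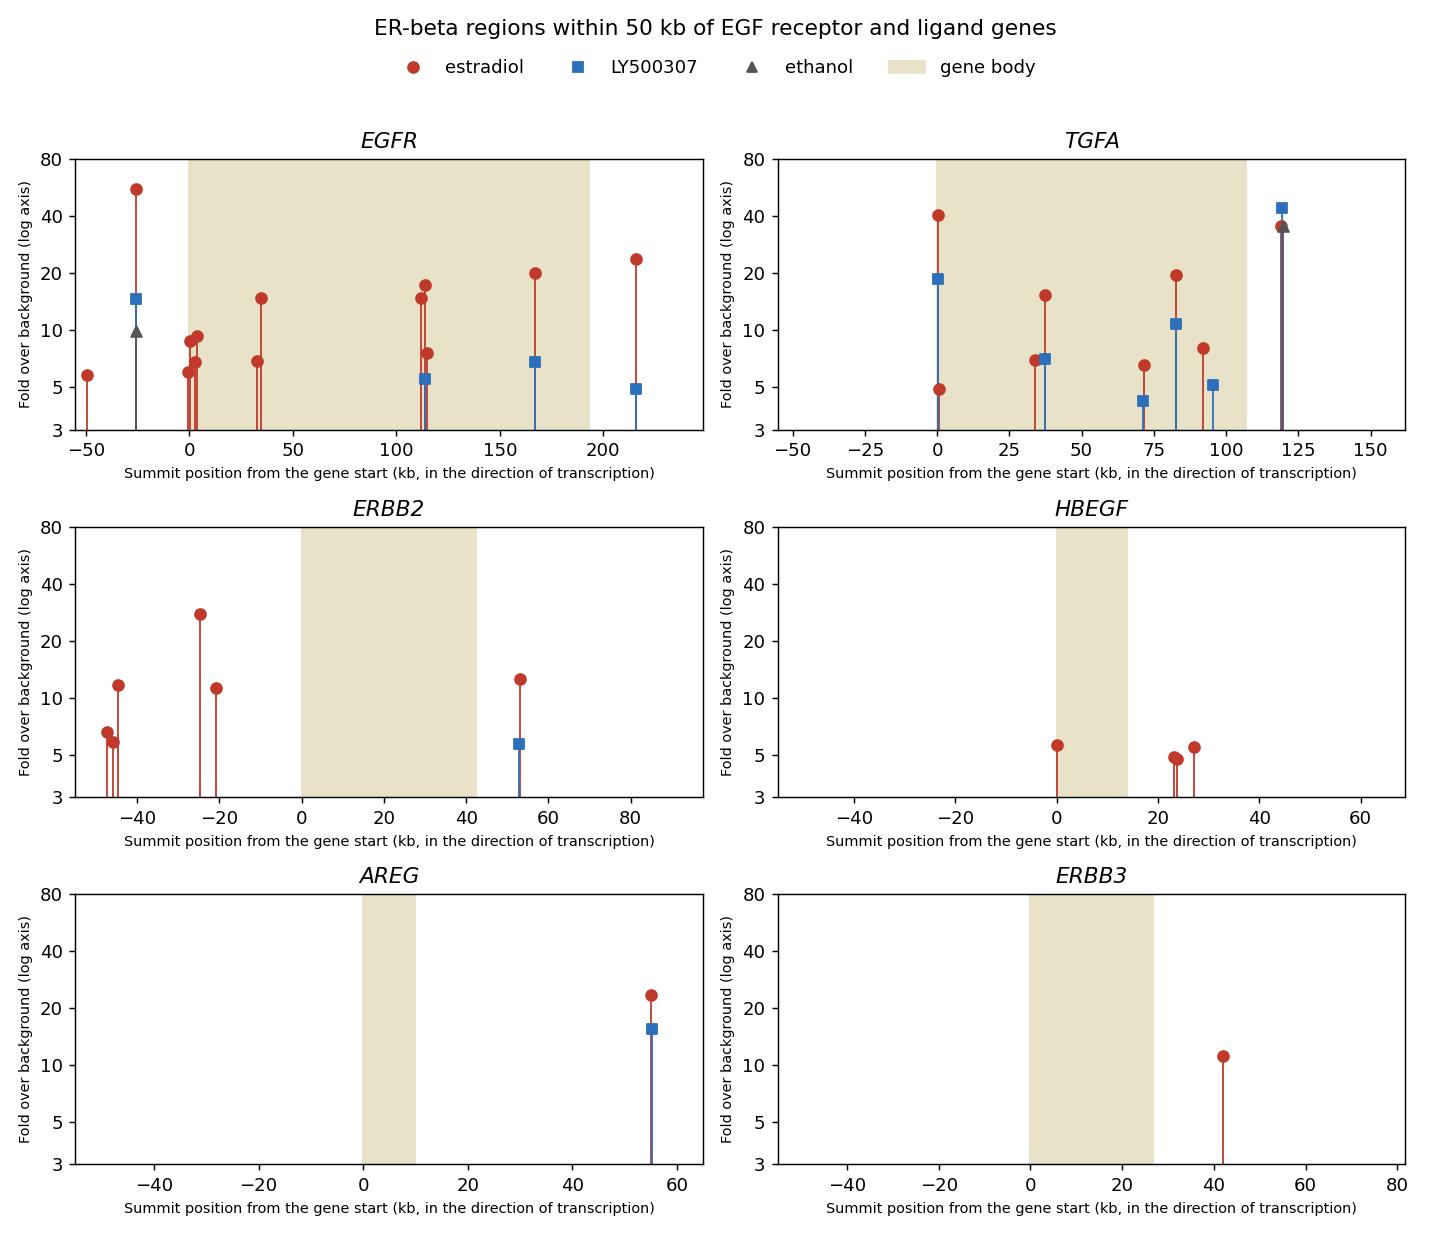
Position of every region summit relative to the start of its gene (horizontal axis, kb in the direction of transcription) and its fold over background (vertical log axis), for the 6 genes with a region; shading marks the gene body. EGFR and TGFA carry regions through the gene body, while none lies inside ERBB2, AREG or ERBB3.

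ERBB2, the receptor amplified in HER2-positive breast cancer, had no region within its body, which runs on the plus strand of chromosome 17 from 39687914 to 39730426. Its 6 estradiol regions all had another gene's transcription start as the nearest. There were 3 in intron 1 of STARD3, a gene for a lysosomal cholesterol carrier, with folds of 6.63, 5.86 and 11.7. The strongest, with a fold of 27.5 (chr17:39663017-39663415, 17.5% from the top of its list), lay in an untranslated exon of STARD3, 2.16 kb upstream of TCAP, which encodes a sarcomere protein. This was the highest estradiol fold of the family among regions without an LY500307 counterpart. The next lay in the promoter of PNMT, the gene of the enzyme that makes adrenaline, with a fold of 11.2. Downstream, a region in intron 1 of GRB7, which encodes an adaptor that binds ERBB receptors, had a fold of 12.5 after estradiol and 5.72 after LY500307, and there was no ethanol region. AP-1 elements were in 4 of these 6 estradiol regions (list 17.5%), and an ERE of at most 1 mismatch in none (list 13.8%). Over the family, AP-1 elements were in 6 of 33 estradiol regions, and 6 regions of 1 gene are too few to read as its trait.

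ERBB3 and ERBB4, the neuregulin receptor genes, had little or nothing nearby. The single ERBB3 region, after estradiol, lay in an untranslated exon of ZC3H10, 428 bp from that gene's start and 15.3 kb past the end of ERBB3 (chr12:56118663-56118986, fold 11.2). The nearest summit to ERBB4 after estradiol was 108 kb from the gene body, with a fold of 15.0, and those after LY500307 and ethanol were 145 and 575 kb away.

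TGFA encodes TGF-alpha, a high-affinity EGFR ligand, and lies on the minus strand of chromosome 2, from 70447284 to 70554193. Its promoter region (chr2:70553718-70554296) had a fold of 40.6 after estradiol, 11% from the top of the list, and of 18.6 after LY500307, 19.4% from the top. No ethanol region was there. The estradiol summit lay 186 bp inside the outermost start and 34 bp from the nearest annotated start. A weaker estradiol region with a fold of 4.91 lay 700 bp inside. Within the gene, both ligands gave regions in intron 1 (fold 15.4 after estradiol and 7.09 after LY500307) and at 2 places in intron 2. One of these, 82.8 kb from the start, holds an AP-1 element and had folds of 19.6 and 10.9. The other had 6.54 after estradiol and 4.22 after LY500307, with summits 131 bp apart. Estradiol regions in introns 1 and 3 with folds of 7.0 and 8.05 had no counterpart. The LY500307 region in intron 3 (chr2:70458714-70458913, fold 5.16) was the 1 region of the family missing from the estradiol list.

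The most prominent TGFA region in the LY500307 and ethanol lists was a repeat. It lay intergenic, 12.7 kb past the 3′ end of the gene by the ethanol summit, and was 1549 bp wide after estradiol (chr2:70433986-70435534), 1532 bp after LY500307 and 1508 bp after ethanol. The median width in these lists was 330, 302 and 275 bp, and no ethanol region was wider. Its fold was 35.3 after estradiol, 44 after LY500307 and 35.6 after ethanol. It ranked 3533 (13.2% from the top), 496 (4.94%) and 48 (1.65%) in the same order. Copies of the pentamer TATCC, in any phase, covered 1099 bp of it. The bases within 100 bp of its estradiol summit held 17 different words of 5 bases, against 138 to 179 at the other estradiol regions of the family and a list median of 166. Including this site, 2 regions of the estradiol list had as few. Whether reads place uniquely there was not tested. Without it, TGFA had no ethanol region and EGFR alone among the 9 genes had one.

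The remaining ligands had weak or distant regions. The AREG region lay 45.3 kb beyond the gene for amphiregulin, in intergenic DNA, at 20.6% from the top of the estradiol list (chr4:74500037-74500798, fold 23.6) and 24.4% from the top of the LY500307 list (fold 15.5). Its 2 summits were 1 bp apart, 4 and 3 bp from the centre of an ERE match with 2 mismatches (T3G and C13A). Neither EREG, which encodes epiregulin beside AREG, nor BTC, the betacellulin gene further along, had a region; their nearest estradiol summits were 112 and 79.2 kb from the gene body. HBEGF, which encodes the heparin-binding ligand and the diphtheria toxin receptor, had 4 estradiol regions with folds of 4.76 to 5.64, 86.0 to 95.5% from the top of that list. One covered the HBEGF promoter, with its summit 38 bp inside the gene, and 3 lay 23.1 to 27.2 kb from the start, beyond the 3′ end and nearest to PFDN1, a prefoldin subunit gene. None was in another list.

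Sharing between lists was counted from overlaps of at least 1 bp. The 47 regions formed 34 sites, of which 2 were in all lists, 9 in 2 lists and 23 in 1. Of the estradiol regions, 11 of 33 (33.3%, 95% Wilson interval 19.8 to 50.4) overlapped an LY500307 region, against 33.8% of the whole list. The corresponding count with ethanol was 2 of 33 (6.06%), against 9.26%. Of the LY500307 regions, 11 of 12 overlapped an estradiol region, against 91.9% of the list, and 2 of 12 an ethanol region, against 22.9%. Both ethanol regions overlapped an estradiol and an LY500307 region, as did 87% and 79.8% of their list. The family's shares thus stood close to those of the lists, and the intervals cover counting error only. The estradiol regions shared with LY500307 had a median fold of 20.1, from 6.54 to 55.6, and those not shared 6.95, from 4.76 to 27.5. Over the whole list these medians were 27.7 and 7.59. Summits of the shared sites were a median of 36 bp apart between estradiol and LY500307.

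**Figure D3:**
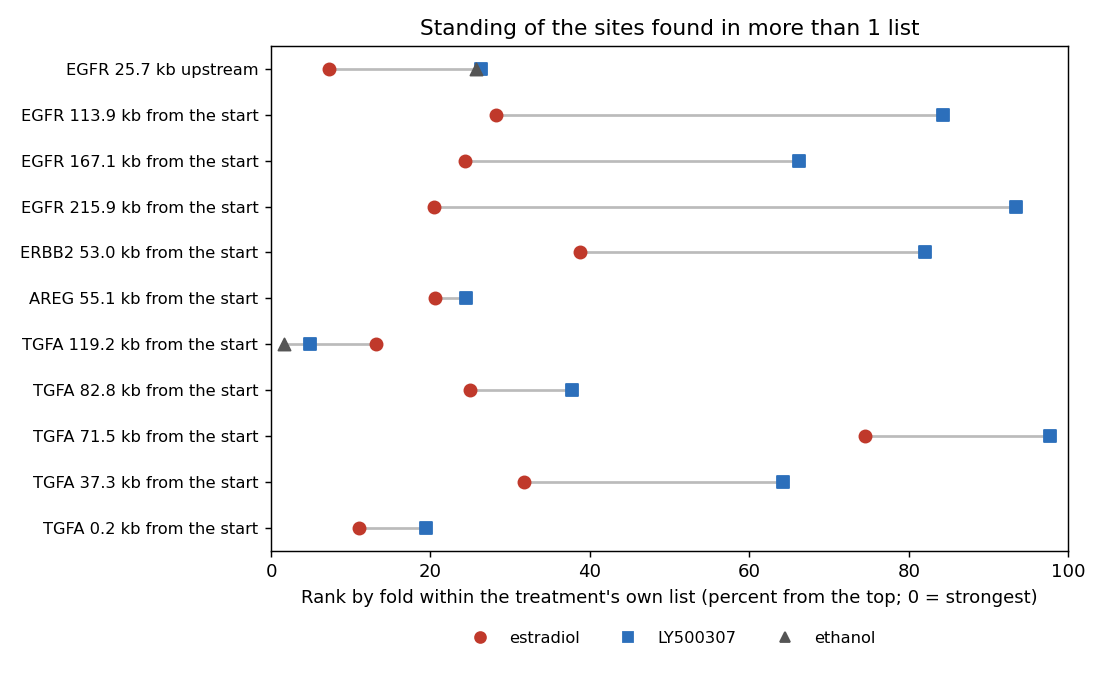
Rank by fold of the 11 sites found in more than 1 list, as percent from the top of the treatment's own list (horizontal axis, 0 strongest); each row is a site, and points joined by a line are the same site after estradiol, LY500307 or ethanol. The repeat downstream of TGFA lies 13.2% from the top of the estradiol list, 4.94% from that of the LY500307 list and 1.65% from that of the ethanol list; the lists differ in length, so positions along a line measure no change.

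Motifs were sought within 100 bp of each summit. With at most 1 mismatch in the 10 fixed positions, 2 of 33 estradiol regions held one (6.06%, Wilson interval 1.68 to 19.6), against 13.8% of the list, and both were at EGFR. The EGFR upstream site was also the only one of the 12 LY500307 regions with an ERE (list 15.7%) and 1 of the 2 ethanol regions (list 15%). No region held an intact ERE, for which 0 of 33 allows a share of up to 9.09%; 1.65% of the estradiol list did. Allowing 2 mismatches gave 10 of 33 estradiol regions, against 44.6% of the list and 7.80% of windows 2000 bp downstream of all summits. The AP-1 element TGANTCA was in 6 of 33 estradiol regions (18.2%, list 17.5%) and 2 of 12 LY500307 regions (list 17%). AGGTCA, a single arm of the palindrome, was in 12 of 33 (36.4%, list 44.7%) and 3 of 12 (list 44.9%). For estradiol the list's share lay inside the interval of the family's in each of these cases, so 33 regions do not resolve a difference. With neither an ERE of at most 1 mismatch nor AGGTCA nor AP-1 were 16 of the 33 estradiol regions (48.5%, Wilson interval 32.5 to 64.8). The list's share was 43.3%, inside that interval. The TGFA promoter and the strongest ERBB2 region were among the 16.

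The summits' places in genes were set beside those of the whole list. Of the 33 estradiol summits, 17 were in introns (51.5%, list 40.5%) and 8 were intergenic (24.2%, list 36.4%). There were 5 in promoters (15.2%, list 16.4%), counted from 1000 bp before to 100 bp after the start of a protein-coding transcript, and 3 in untranslated exons (9.09%, list 3.28%). None was in a coding exon (list 3.47%). Each of these list shares lay inside the 95% Wilson interval of the family's share, so 33 regions do not resolve a difference. The family's regions lie within 50 kb of a gene body by rule, which regions of the list need not. The 5 promoter regions had a median fold of 6.02, and 1 of them, at TGFA, was shared with LY500307. The 28 others had a median fold of 10.2, and 10 were shared. In the whole estradiol list the promoter regions had a median fold of 6.90, and 28.7% of them were shared. The others in that list had a median fold of 10.4, and 34.8% were shared.

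Other genes of the pathway were taken from a list of 54. A summit lay within 50 kb of 49 of them after estradiol (90.7%), 40 after LY500307 (74.1%) and 19 after ethanol (35.2%). For all protein-coding genes these shares were 74.5%, 49.2% and 22.8%. Those without an estradiol region included the ligand gene EPGN, RHBDF1 and IER3, named here after their values were seen. All 16 feedback inhibitor genes and all 8 genes of the PI3K, PLC and STAT group had an estradiol region. LY500307 regions were near 14 of the 16 inhibitors and 10 of the 14 adaptor and RAS-MAPK genes. Neighbours can share a region: STAT3, STAT5A and STAT5B had the same strongest estradiol region. The list was not matched on gene length, and no test was made.

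The highest estradiol folds among pathway genes exceeded those of the receptors and ligands above. The region near MAP2K2, a MAPK kinase gene, had a fold of 134.5 after estradiol, 43.8 after LY500307 and 13.4 after ethanol, but lay in an intron of ZBTB7A. SPRED2, a RAS-MAPK inhibitor gene, had an intergenic region downstream with an intact ERE and folds of 123.3, 30.7 and 22.1 in the same order (chr2:65300079-65300619 after estradiol). Near RHBDF2, which helps the sheddase ADAM17 mature, the highest fold was 99.6 after estradiol, in intergenic DNA, and 79.3 after LY500307 and 16.0 after ethanol, both at the CYGB promoter. MAP2K1 had 99.5 after estradiol and 40.4 after LY500307 at 1 intronic site, and 6.89 after ethanol at another. GRB2, the adaptor gene, had 91.1 after estradiol and 30.8 after LY500307. SPRY1, another feedback inhibitor gene, had 85.0 and 24.6 at its promoter. Among the other ligands, NRG1, a neuregulin gene, had a strongest fold of 85.5 after estradiol and 27.9 after LY500307. At NRG4 it was 81.3 after estradiol, 12.4 after LY500307 and 7.15 after ethanol, in an intron of TMEM266. The 19 genes with an ethanol region further included SHC1, NRAS, MAPK3, PLCG1, ERRFI1, DUSP5, CBL, CBLC, PTPN1, NRG3, ADAM17, FOSL1 and MYC. The highest ethanol folds of the 19 ran from 4.03 at MYC to 22.1 at SPRED2, and 17 of the 19 also had an LY500307 region. At the promoter of ERRFI1, which encodes an inhibitor of the EGFR kinase, the strongest estradiol region had a fold of 43.4, the LY500307 region 22.6 and the ethanol region 13.7.

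**Figure D4:**
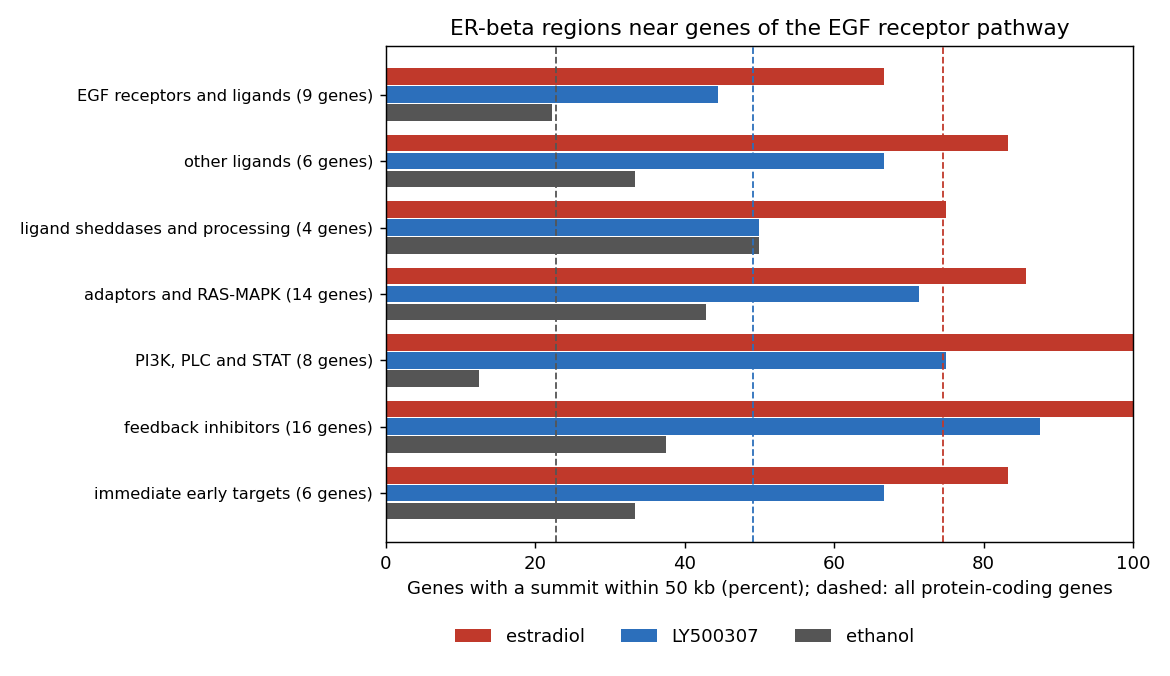
Share of genes having a region (percent, horizontal axis) in each group of pathway genes (rows), after estradiol, LY500307 and ethanol (bars, top to bottom); dashed lines mark all protein-coding genes at 74.5%, 49.2% and 22.8%. The receptors and ligands stand at 66.7%, 44.4% and 22.2%, and the feedback inhibitors reach 100% after estradiol.

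Values beside the 50 kb limit were as follows. Just inside lay the EGFR region 49.6 kb upstream (fold 5.81) and the ERBB2 regions in STARD3 47.3, 45.9 and 44.6 kb upstream (folds 6.63, 5.86 and 11.7). The only AREG region also lay near the limit, 45.3 kb beyond the gene, with folds of 23.6 after estradiol and 15.5 after LY500307. With summits within 20 kb, 5 genes had an estradiol region and 3 an LY500307 region, and AREG had none. Just outside, 54.1 to 58.8 kb from the gene bodies, were estradiol regions of ERBB3 with folds of 6.0, 25 and 23, of TGFA with 33.9, 19.2 and 11, and of HBEGF with 6.93 and 4.78. In that range ERBB3 also had LY500307 regions with folds of 7.82 and 7.12 and an ethanol region with a fold of 6.55, and LY500307 regions lay near TGFA with folds of 6.43 and 5.51 and near HBEGF with 6.07.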

How the data were processed

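ChIP with an antibody to Flag was sequenced from doxycycline-treated cells. Per the submitters' processing notes, Bowtie2 2.2.6, MACS2 2.1.1.20160309, DiffBind and hg38 were used, with no role given. The authors deposited 1 narrowPeak list per treatment; the single libraries and inputs were not analysed here. In column order, the deposited values are a display score (the integer part of 10 times -log10 q, not used), the fold (a ratio of ChIP over local background), -log10 p (not used) and the authors' -log10 q (lowest -log10 q 2.15 for estradiol, 2.11 for LY500307 and 2.02 for ethanol). The lists give no read totals, so depth and its precision are unknown.

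Only the chromosomes 1 to 22, X and Y were used, which kept 26861 of 26896 estradiol, 10045 of 10059 LY500307 and 2905 of 2911 ethanol records. No region end lay past its hg38 sequence. Genes came from GENCODE 44, intron numbers from Ensembl canonical transcripts, and positions count from 1. Motifs were sought on both strands without mismatch, except for the ERE. Wilson intervals and the limit for a count of 0 (3 counts of the total) cover counting error only. RefSeq promoter windows were matched by symbol for 8 of the 9 members (10 windows). Analysis used Python 3.11.15, numpy 2.4.6, pandas 2.3.3, scipy 1.17.1, pysam 0.24.0 and matplotlib 3.10.9, and the functions were tested on simulated data. All members were named; pathway genes were named if they had an ethanol region or were among the 8 with the highest estradiol fold; a few are not reported here. Members, pathway lists and rules were chosen with earlier results of these data known. Alternatives concerned the distance, the threshold, the overlap, the mismatches, the ranking and the list length.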

Additional observations from a re-analysis of the deposited data

How the results depend on the processing

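No paired analysis was possible because there is 1 list per treatment, with no replicate numbers; for the same reason no replicate could be left out. Regions near the 9 genes numbered 55 after estradiol, 23 after LY500307 and 6 after ethanol when summits within 100 kb were counted, and 7 genes then had an LY500307 region. Within 20 kb, 1 ethanol region at 1 gene was left, and 12 of the 54 pathway genes had one. With the 2905 highest regions by fold of each list, 1 estradiol region at 1 gene and 4 LY500307 regions remained near the family. An ERE without mismatch was in 0 regions of each list, and with 2 mismatches in 10 estradiol and 5 LY500307 regions. When sharing needed summits within 200 bp, each of the 4 counts of sharing with or within the ethanol list was 1 in place of 2. Leaving out the repeat downstream of TGFA, an alternative chosen after seeing the data, also gave 1 for these 4 counts, and 1 ethanol region at 1 gene. In the 59 other combinations of a result and an alternative, among them -log10 q of 5 or more and ranks by -log10 q, values stayed within 1.5 times the reported one. Unknown depth limits every count: weak regions may be missing from the shorter lists.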

Other observations

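Regions rich in the TATCC pentamer were not confined to the site downstream of TGFA. A search made after that site had been seen asked for regions with at least 10 starts of a tandem pair of TATCC on either strand. It found 6 regions in each list, each of them with a counterpart in the other two. Their folds were 13.7 to 35.3 after estradiol, 14.5 to 44 after LY500307 and 14.6 to 35.6 after ethanol. They ranked 3533 to 9566 of 26861 after estradiol, 496 to 2664 of 10045 after LY500307 and 48 to 388 of 2905 after ethanol. They thus lay 13.2% to 35.6% from the top of the estradiol list, 4.94% to 26.5% from that of the LY500307 list and 1.65% to 13.4% from that of the ethanol list, and lists of unequal length allow no comparison of ranks. Those with the most copies were the TGFA site and one at chr2:117076805-117078204 (folds 22.3 after estradiol, 31.0 after LY500307 and 24.7 after ethanol). How reads map within such repeats was not tested.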
